A study of Mus musculus with 47 samples.

Results

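The acetylation mark H3K27ac, the enhancer-associated mark H3K4me1 and the repressive mark H3K27me3 were mapped by ChIP-seq in livers of floxed control female mice, and the 3 resulting peak lists were crossed with each other on the autosomes. They hold 48858 H3K27ac peaks, 54181 H3K4me1 peaks and 17188 H3K27me3 regions, 120227 of the 498557 entries in the 12 lists of the study. A base or peak was put in a combination of marks when lists overlapped by at least 1 bp. The mice were 7 weeks old and carried floxed Ezh2 alleles (Ezh2 f/f), and the labels name no Cre transgene and no Ezh1 deletion for them. The study set them, as littermate controls, beside mice that lack Ezh1 and in which Alb-Cre, driven by the hepatocyte-expressed albumin promoter, inactivates Ezh2. Each list was called from the joined reads of 4 livers, so it has no replicate, and its entries carry no height or score. Whole liver holds hepatocytes together with endothelial, Kupffer, stellate and bile duct cells, and 4 animals were pooled. Marks that overlap in these lists therefore cannot be told apart from marks in different cells, different animals or on the 2 alleles.

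H3K27me3 is deposited by the Polycomb complex PRC2, whose catalytic subunit is Ezh1 or Ezh2, and it is found over silent developmental genes in broad blocks. H3K27ac occupies the same lysine and marks active promoters and enhancers, so a single histone tail cannot carry both. H3K4me1 marks enhancers, active or poised, and the flanks of active promoters. Promoters that carry an active and a repressive mark together are known as bivalent in stem cells, where the active mark is usually H3K4me3, which was not measured here.

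The promoters below are examples of each marked combination except H3K4me1 only. The combination given is that of the window within 1 kb of the gene start. The printed bases need not carry every mark of it. The Actb and Foxa2 sequences lie inside their genes, which held no H3K4me1. Every CG dinucleotide is in capitals, since the share of CG differs between promoters of different combinations. Coordinates are mm9, each sequence is read on the strand of its gene, and none holds an annotated exon. The secreted protein genes Alb (chr5:90889166-90889365, plus strand; H3K27ac only) and Apob (chr12:7984254-7984453, plus strand; H3K27ac with H3K4me1) encode albumin and the apolipoprotein of liver lipoproteins. Actb (chr5:143668067-143668266, minus strand; H3K27ac with H3K4me1) encodes cytoskeletal actin. The pioneer factors Foxa1 (chr12:58646443-58646642, minus strand; H3K27ac with H3K27me3) and Foxa2 (chr2:147872174-147872373, minus strand; all 3 marks) act in hepatocytes. Hoxa7 (chr6:52170827-52171026, minus strand; H3K4me1 with H3K27me3) and Hoxa2 (chr6:52115413-52115612, minus strand; H3K27me3 only) pattern the body axis. Each sequence is the exon-free stretch of 200 bases nearest the centre of the promoter's H3K27ac peak, or for Hoxa7 its H3K4me1 peak. For Hoxa2, which has no active peak, it is the 200 bases before the gene start. Counted in bases from the gene start, Alb lies at -749 to -550 and Apob and Hoxa2 at -200 to -1. Past the start lie Actb (167 to 366), Foxa2 (332 to 531), Foxa1 (466 to 665) and Hoxa7 (827 to 1026). Their CG counts and motifs are thus read at unlike distances from the start. The sequences were taken from the mouse genome NCBIM37 with the GENCODE M1 annotation.
Alb: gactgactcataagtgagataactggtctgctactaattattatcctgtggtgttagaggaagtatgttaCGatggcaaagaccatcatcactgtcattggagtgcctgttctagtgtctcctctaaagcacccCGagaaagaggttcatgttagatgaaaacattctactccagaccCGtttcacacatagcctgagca
Apob: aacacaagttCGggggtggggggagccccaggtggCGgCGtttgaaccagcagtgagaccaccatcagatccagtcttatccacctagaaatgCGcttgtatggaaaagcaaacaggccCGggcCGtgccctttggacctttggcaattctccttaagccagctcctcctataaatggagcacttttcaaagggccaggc
Actb: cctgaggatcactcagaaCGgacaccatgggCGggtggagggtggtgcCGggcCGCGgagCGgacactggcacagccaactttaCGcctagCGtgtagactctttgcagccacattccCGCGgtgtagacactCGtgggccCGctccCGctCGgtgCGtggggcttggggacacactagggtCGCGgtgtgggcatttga
Foxa1: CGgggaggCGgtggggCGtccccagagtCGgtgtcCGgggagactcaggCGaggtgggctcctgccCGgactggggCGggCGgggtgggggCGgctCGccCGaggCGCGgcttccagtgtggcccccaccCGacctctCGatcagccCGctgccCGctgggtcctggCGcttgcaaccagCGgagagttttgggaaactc
Foxa2: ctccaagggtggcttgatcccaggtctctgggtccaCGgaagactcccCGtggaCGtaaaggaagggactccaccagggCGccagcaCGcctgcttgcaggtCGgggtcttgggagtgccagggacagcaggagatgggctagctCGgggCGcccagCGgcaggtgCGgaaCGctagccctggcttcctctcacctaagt
Hoxa7: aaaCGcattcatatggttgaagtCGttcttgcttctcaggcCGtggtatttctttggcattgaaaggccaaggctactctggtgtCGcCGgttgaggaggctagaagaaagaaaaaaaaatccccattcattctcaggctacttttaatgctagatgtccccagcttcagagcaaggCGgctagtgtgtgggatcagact
Hoxa2: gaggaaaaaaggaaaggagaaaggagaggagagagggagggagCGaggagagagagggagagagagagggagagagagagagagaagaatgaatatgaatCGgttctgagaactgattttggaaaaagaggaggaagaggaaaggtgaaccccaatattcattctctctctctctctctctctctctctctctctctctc
The Foxa1 sequence holds 20 CG dinucleotides and the Actb sequence 17, against 3 in the Alb sequence and 2 in the Hoxa2 sequence. Foxa2 holds 11, and Apob and Hoxa7 hold 6 each. The GC box GGGCGG was found in the Actb and Foxa1 sequences, and the TATA box TATAAA in the Apob sequence. These single genes do not stand for their combinations. From 250 bp before to 50 bp after the start, the ratio of observed to expected CG was 0.261 at Alb. The median over genes with H3K27ac only was 0.764. At Apob and Actb the ratio was 0.436 and 1.15, against a median of 0.793 over genes with H3K27ac and H3K4me1.

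Hepatocyte genes carried H3K27ac, as the label of liver implies. Of 14 hepatocyte markers, 13 carried H3K27ac within 1 kb of their start, with a median of 1007 covered bases in the window of 2001 bases and a highest value of 1645 for Apob. The exception was Fgb, a fibrinogen chain, whose promoter carried none of the marks. Markers of the other liver cells were mostly without H3K27ac. It was found at 3 of 10 endothelial, 0 of 8 Kupffer cell and macrophage, 3 of 9 stellate and 2 of 7 bile duct markers. H3K27me3 lay at 7, 5, 8 and 7 of these, against 1 of the 14 hepatocyte markers. Over all 21418 autosomal protein-coding genes, 51.6% carried H3K27ac and 37% H3K27me3 in the same window.

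The H3K27ac list covered 30.7 Mb (1.28% of the autosomes), the H3K4me1 list 27.6 Mb (1.15%) and the H3K27me3 list 630.1 Mb (26.3%). H3K27ac peaks had a median width of 483 bp, H3K4me1 peaks of 433 bp and H3K27me3 regions of 24000 bp, up to 927600 bp. H3K27me3 covered between 19.1% (chromosome 3) and 38.5% (chromosome 11) of a chromosome. Of 2393.7 Mb of sequence, 1724 Mb (72.0%) lay under no mark and 620.3 Mb (25.9%) under H3K27me3 alone. H3K27ac alone covered 19.2 Mb, H3K4me1 alone 13.3 Mb, and both active marks without H3K27me3 7.12 Mb. Within H3K27me3 regions, 2.65 Mb carried H3K27ac without H3K4me1, 5.43 Mb carried H3K4me1 without H3K27ac and 1.74 Mb carried both.

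These lengths were set beside those expected if the lists were laid over each chromosome independently of each other. H3K27ac with H3K4me1 covered 27.04 times the expected length, between 19.8 times on chromosome 11 and 34.8 times on chromosome 14. All 3 marks together covered 17.1 times the expected length, from 8.95 times on chromosome 19 to 31.0 times on chromosome 3. This excess comes with that of the active pair: of the 8.85 Mb under both active marks, 19.6% lay in H3K27me3, below the 26.3% of the autosomes. H3K27ac with H3K27me3 and no H3K4me1 covered 0.323 of the expected length and was below expectation on all 19 autosomes. H3K4me1 with H3K27me3 and no H3K27ac covered 0.739 of it, also below on all 19. With or without the other active mark, 14.3% of the bases of H3K27ac peaks lay in H3K27me3 regions. This was 25.9% for the bases of H3K4me1 peaks and 26.3% for the autosomes.

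Counted as peaks, 49.8% of H3K27ac peaks (24324, Wilson 95% interval 49.3 to 50.2%) overlapped an H3K4me1 peak, and random placement of each peak on its own chromosome gave 2.53%. In the other direction, 46.8% of H3K4me1 peaks (25356, interval 46.4 to 47.2%) overlapped H3K27ac, against 2.28%. H3K27me3 was met by 17.8% of H3K27ac peaks (8717, interval 17.5 to 18.2%), against 27.5% under random placement, and by 25.1% of H3K4me1 peaks (13604, interval 24.7 to 25.5%), against 27.3%. H3K27ac peaks were thus thinned out in H3K27me3 regions, and H3K4me1 peaks were nearly as frequent there as placement alone gave. An active peak that met an H3K27me3 region mostly lay inside it: 95.6% of such H3K27ac peaks and 96.6% of such H3K4me1 peaks were covered over their whole width. The intervals hold for counting alone. They take each peak as independent of its neighbours and are therefore too narrow. Placement was not corrected for sequence that reads cannot be mapped to. H3K27me3 regions were called by joining enriched windows across gaps, so an active peak inside one can lie in a stretch without H3K27me3 reads, which the lists cannot show. With at least 50% of the peak required, 31.7% of H3K27ac peaks overlapped H3K4me1, and with the widest 50% of each list 10.2% met H3K27me3, against 21.8% under placement.

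**Figure D1:**
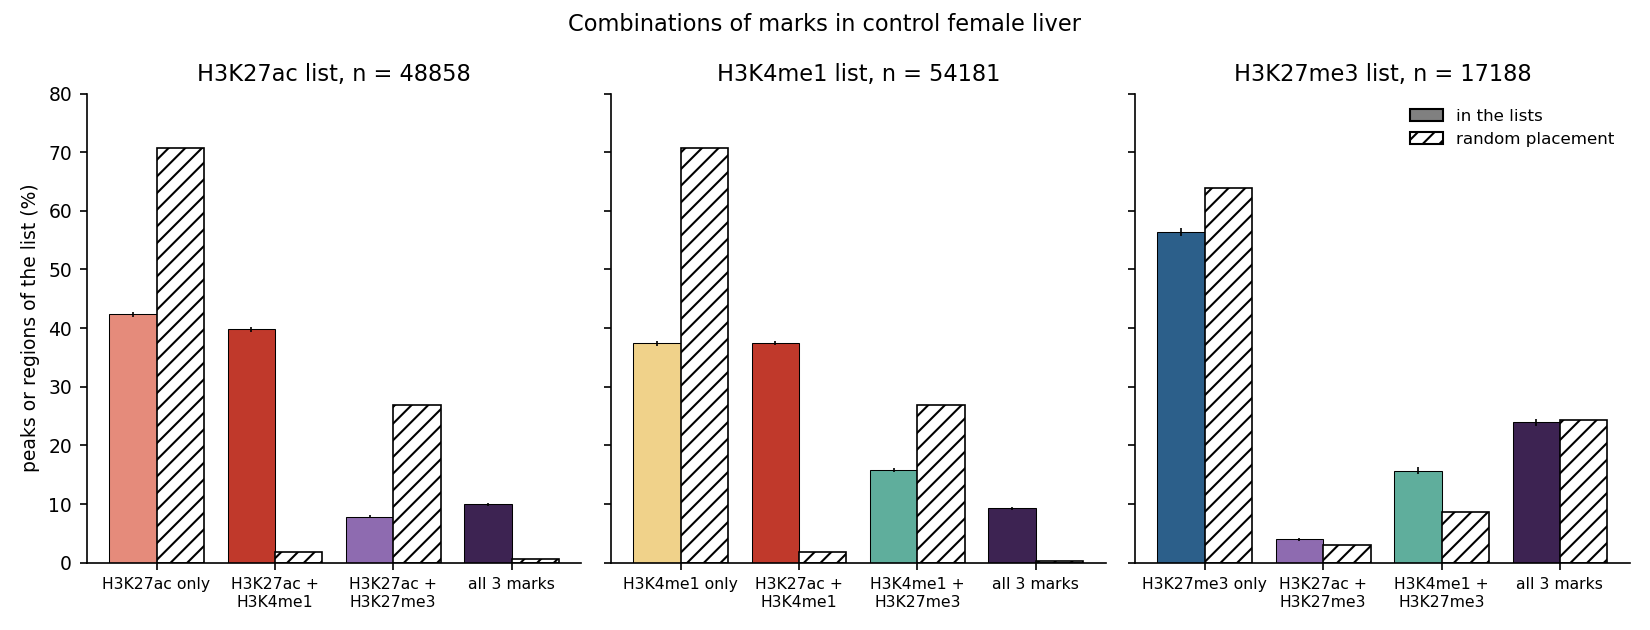
Percent of the peaks or regions of each list (y axis) in each combination of marks, as found (filled bars, with Wilson 95% intervals as error bars) and under random placement on the same chromosome (hatched bars). H3K27ac with H3K4me1 makes up 39.8% of the H3K27ac list against 1.86% under random placement, and H3K27ac with H3K27me3 alone 7.88% against 26.8%.

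Split by combination, 20682 H3K27ac peaks (42.3%) carried neither of the other marks, 19459 (39.8%) carried H3K4me1, 3852 (7.88%) carried H3K27me3 and 4865 (9.96%, interval 9.70 to 10.2%) carried both. Of the 24324 H3K27ac peaks with H3K4me1, these 4865 made up a smaller share than the 27.5% that placement gave for H3K27me3 over all H3K27ac peaks. Random placement gave 0.667% for all 3 marks. With the widest 50% of each list, the share found with all 3 marks was 5.44%. Of the H3K4me1 peaks, 20272 (37.4%) stood alone, 20305 (37.5%) had H3K27ac, 8553 (15.8%) had H3K27me3 and 5051 (9.32%) had both. Median widths differed between the combinations, and an overlap of 1 bp by itself favours wide peaks. H3K27ac peaks with H3K4me1 had a median width of 588 bp and those with all 3 marks 496 bp, against 429 bp for H3K27ac alone and 330 bp for H3K27ac with H3K27me3 and no H3K4me1.

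Inside H3K27me3 regions, 55.8% of H3K27ac peaks overlapped H3K4me1 (interval 54.8 to 56.9%), against 48.5% outside (48.0 to 48.97%). The gap came at promoters, with 63.8% inside (62.1 to 65.4%) and 42.1% outside (41.2 to 43.0%). In gene bodies the shares were 48.1% and 47.9%, and between genes 53.4% and 55.7%. Seen from H3K4me1, the share with H3K27ac was lower inside than outside in all 3 locations. In all, 37.1% of H3K4me1 peaks inside H3K27me3 regions overlapped H3K27ac (36.3 to 37.9%), against 50.04% outside (49.6 to 50.5%), and between genes 32.3% against 53.7%. At promoters the shares were 49.98% and 67.5%, and in gene bodies 29.3% and 41.7%. For H3K27ac peaks the higher share inside was thus seen at promoters, while in gene bodies and between genes the intervals overlapped.

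Among peaks with no overlap, the other active mark was often close by. The 24534 H3K27ac peaks without H3K4me1 lay a median of 2.58 kb from the nearest H3K4me1 peak, and 35.3% lay within 1 kb. At promoters the median was 1.27 kb. The 28825 H3K4me1 peaks without H3K27ac lay a median of 6.40 kb from the nearest H3K27ac peak, with 0.627 kb at promoters and 9.50 kb between genes. Counting overlaps and neighbours within 1 kb together, 82.0% of promoter H3K4me1 peaks had H3K27ac, against 57.5% of those between genes.

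Each peak was then placed at a promoter (within 1 kb of a protein-coding transcription start), in a gene body (the rest of a gene up to 1 kb past its end) or between genes. Random placement put 3.15% of H3K27ac peaks at promoters, 38.8% in gene bodies and 58% between genes. H3K27ac peaks without other marks lay at promoters in 31.7% of cases (interval 31.0 to 32.3%), in gene bodies in 44.0% and between genes in 24.4%. With H3K4me1, 24.5% were at promoters (23.9 to 25.1%), 43.0% in gene bodies and 32.6% between genes. With the widest 50% of each list, the promoter shares of these classes were 47.9% and 37.7%. With H3K27me3, 29.6% were at promoters and 40.7% between genes. With all 3 marks, 41.3% were at promoters (39.9 to 42.6%) and 21.8% in gene bodies. H3K27ac peaks inside H3K27me3 were thus found less in gene bodies than those outside, with or without H3K4me1.

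H3K4me1 peaks without other marks had the lowest share at promoters and the highest in gene bodies among the combinations of both active lists. Of them 11.9% lay at promoters (11.5 to 12.4%; 2.57% with a promoter of 0.25 kb on each side of the start and 25.8% with 3 kb), 60.2% in gene bodies and 27.9% between genes. H3K4me1 peaks with H3K27me3 lay at promoters in 25.3% of cases and between genes in 44.2%, and with all 3 marks in 42.8% and 35.8%. By bases, 45.4% of the length under H3K27ac alone and 45.8% of the length under H3K27ac with H3K27me3 lay at promoters, which make up 2.36% of the autosomes. For H3K4me1 alone this was 13.0%, and for H3K27me3 alone 2.55%. H3K27me3 regions that held both active marks overlapped a promoter in 69.8% of cases, against 31.8% under random placement, whereas those without active peaks did so in 16.3%, against 22.2%.

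**Figure D2:**
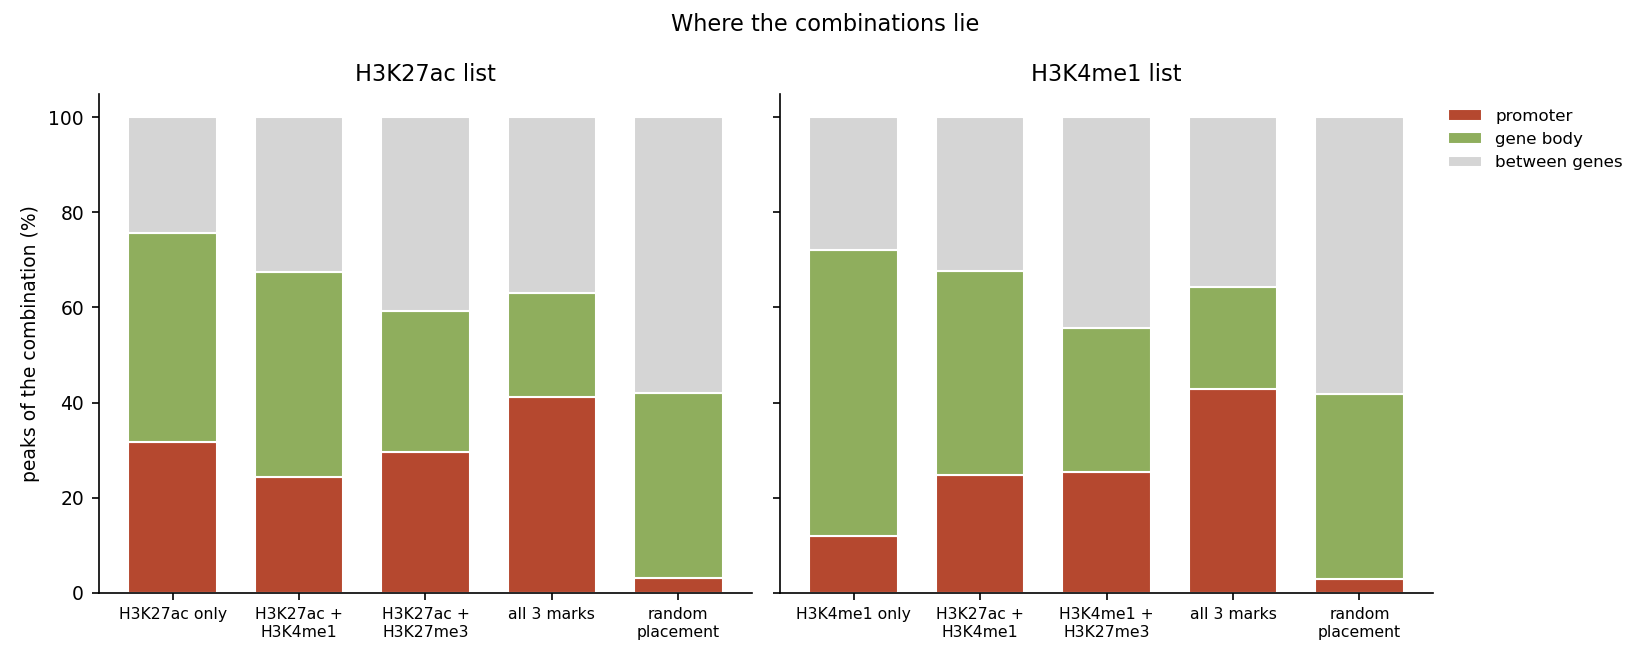
Percent of the peaks of each combination (y axis) at promoters, in gene bodies and between genes, for the H3K27ac list (left) and the H3K4me1 list (right), with random placement of the whole list as the last bar. Promoters hold 41.3% of H3K27ac peaks with all 3 marks and 11.9% of H3K4me1 peaks without other marks.

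The share of H3K27ac peaks inside H3K27me3 also depended on where the peak lay. It was 21.8% at promoters, 11.2% in gene bodies (interval 10.8 to 11.7%) and 22.8% between genes, while H3K27me3 covered 34.2%, 26.2% and 26.1% of the bases of these places. For H3K4me1 the shares were 36.8%, 15.0% and 31.4%. Relative to the coverage of each place, H3K4me1 peaks in H3K27me3 were 1.08 times as frequent as coverage at promoters, 0.571 times in gene bodies and 1.20 times between genes.

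All 21418 autosomal protein-coding genes were then sorted by the marks within 1 kb of their start. H3K27ac was at 51.6% of them (28.02% where at least 50% of the window had to be covered), H3K4me1 at 40.8% and H3K27me3 at 37%. None of the marks was found at 5071 genes (23.7%). H3K27ac with H3K4me1 was the most frequent marked state with 4853 genes (22.7%), followed by H3K27me3 only with 3629 (16.9%), H3K27ac only with 3270 (15.3%), all 3 marks with 2224 (10.4%), H3K4me1 with H3K27me3 with 1370 (6.4%), H3K27ac with H3K27me3 with 707 (3.3%) and H3K4me1 only with 294 (1.37%). These states ask for no other mark anywhere in the window. Their own marks need not overlap each other, since 1 bp of each in the window was enough. Counted by overlap with the peak itself, 2420 of the 11761 H3K4me1 peaks at promoters met no other mark. Of promoters with H3K27ac, 26.5% carried H3K27me3, against 48.2% of promoters without H3K27ac. For H3K4me1 the order was the opposite, with 41.1% against 34.2%.

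The marks were laid out differently around the start in each state, and the states themselves fix which marks are absent within 1 kb. At genes with H3K27ac and H3K4me1, H3K27ac covered most genes between 200 and 300 bp after the start (91.2%). H3K4me1 covered 3.99% of the first 100 bp after the start and reached 53.5% between 900 and 1000 bp after and 27.2% between 800 and 700 bp before the start. Genes with H3K4me1 and H3K27me3 had the reverse shape, with H3K4me1 highest between 100 and 200 bp after the start (59.6%) and 55.4% in the first 100 bp. Genes with all 3 marks lay between, with 27.5% of the first 100 bp under H3K4me1 and the highest coverage, 49.95%, between 600 and 700 bp after the start. H3K27me3 in these genes was highest 1100 to 1000 bp before the start (95.8%), stood at 80.9% in the first 100 bp after it and averaged 66.3% between 4 and 5 kb after it. At genes with H3K27me3 and H3K4me1 it stayed at 95.7% there.

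**Figure D3:**
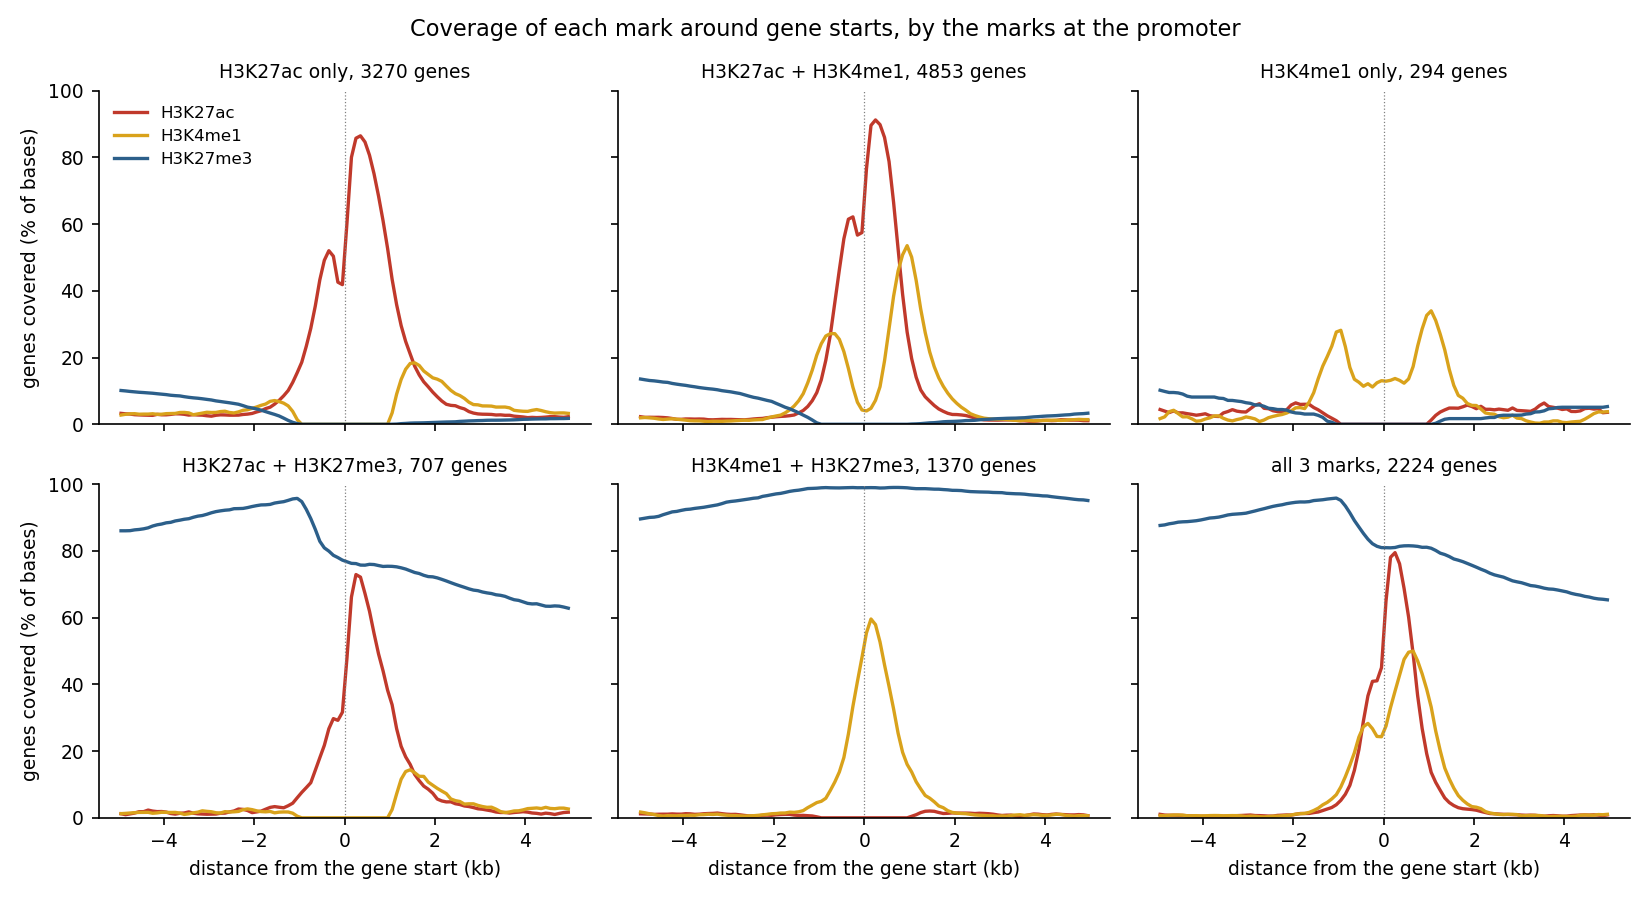
Percent of bases covered by H3K27ac, H3K4me1 and H3K27me3 (y axis) in 100 bp steps from 5 kb before to 5 kb after the gene start (x axis, kb), for genes in each promoter state. H3K4me1 flanks the start at genes with H3K27ac and H3K4me1 and is centred on it at genes with H3K4me1 and H3K27me3.

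Away from promoters H3K4me1 was centred on H3K27ac. It covered 41.9% of the central bases of H3K27ac peaks between genes and 36.5% of those in gene bodies, and averaged 1.69% and 1.55% at 2500 to 3000 bp away. At promoter H3K27ac peaks it covered 15.0% of the centre and rose to 19.6% at 600 to 700 bp.

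Genes made by hepatocytes for the plasma carried H3K27ac and little H3K27me3. Of 20 such genes 19 had H3K27ac at the promoter, 8 had H3K4me1 and 1 had H3K27me3, against 51.6%, 40.8% and 37% of all genes. Alb, Apoa1 and Apoa2, which encode albumin and lipoproteins of HDL, had H3K27ac only over 706, 645 and 1296 bases of the window. Apob, Apoc3 and Fga had H3K4me1 over 391, 422 and 266 bases in addition. Apoh, a phospholipid-binding plasma protein, was the only member with all 3 marks. Of 20 genes of hepatocyte metabolism, 19 had H3K27ac and 2 had H3K27me3. Cps1 of the urea cycle and the gluconeogenic gene G6pc had H3K27ac only, over 182 and 511 bases. The H3K27me3 pair were Cyp2e1, a drug- and ethanol-metabolizing enzyme, and Glul, glutamine synthetase. Both are known for expression in the hepatocytes around the central vein, and a link of this to the mark was not tested. Cyp2e1 had H3K27ac over 1035 bases, H3K4me1 over 30 and H3K27me3 over the whole window and gene. Glul had H3K27ac over 946 bases and H3K27me3 over the whole window and 13.6% of the gene.

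All 16 transcription factors of hepatocytes carried H3K27ac, and 3 of them carried H3K27me3, against 51.6% and 37% of all genes. Foxa3, Cebpa and Cebpb, regulators of liver genes, had H3K27ac only, over 1212, 1301 and 1041 bases. Foxa1 had 477 bases of H3K27ac, Foxa2 955 and Onecut1 966, each with H3K27me3 over the whole window. Foxa1 and Foxa2 lay wholly in H3K27me3, and 3.85% of Onecut1 did. Of the 10 genes of growth hormone signalling, which sets sex differences in liver, 9 had H3K27ac. Ghr, the growth hormone receptor, and its kinase Jak2 had H3K27ac only, over 819 and 1444 bases. Igf1, the growth factor it induces, had H3K4me1 only at the promoter, over 529 bases, while H3K27ac covered 10.1% of the gene. All 18 housekeeping genes had H3K27ac and 11 had H3K4me1 (61.1%, against 40.8% of all genes). None had H3K27me3. Actb, Gapdh and Tbp had H3K27ac over 791, 1432 and 903 bases and H3K4me1 over 374, 374 and 512 bases.

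All 39 Hox genes tested had H3K27me3 over the whole promoter window and the whole gene, where 37% of all genes had any H3K27me3 and 51.6% any H3K27ac at the promoter. Of them 25 had no other mark, 11 had H3K4me1, 1 had H3K27ac and 2 had both. H3K4me1 was thus at 33.3% of them, against 40.8% of all genes and 45.3% of all promoters with H3K27me3. Those with both were Hoxa4 (841 bases of H3K27ac) and Hoxa5 (696 bases). Among those with H3K4me1, Hoxa3 had 283 bases, Hoxa7 193 bases and Hoxa10 315 bases. The highest value, 1020 bases at Hoxd9, was picked after the values were seen. All 29 other developmental transcription factors also had H3K27me3, 10 of them with H3K4me1 (34.5%) and 2 with H3K27ac. Pax1, Pax2 and Pax6, of the skeleton, kidney and eye, had H3K27me3 only. Pax3 of the neural crest had H3K4me1 over 799 bases, the thyroid and kidney factor Pax8 over 68 bases and the pluripotency and neural factor Sox2 over 355 bases. The H3K27ac pair was Sox17 (446 bases), an endoderm and endothelial factor, and Gata6 (790 bases), an endoderm factor.

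All 11 skeletal muscle genes had H3K27me3 only, the state of 16.9% of all genes, among them Acta1, Myh1 and Myh2 of the contractile filaments. Of 13 neuronal genes, 6 had H3K27me3 only and 6 had H3K4me1 with H3K27me3 (6.4% of all genes), such as the glutamate receptor subunit Grin1 (409 bases of H3K4me1) and the vesicular glutamate transporter Slc17a7 (282 bases). Of the 10 endothelial markers, 5 had H3K27me3 only, such as Pecam1, Stab2 and Cdh5, and 2 had no mark (23.7% of all genes). Tie1 had both active marks (22.7% of all genes), Stab1 had H3K27ac with H3K27me3 and Kdr had all 3. Of the 7 bile duct markers, 4 had H3K27me3 only, 1 had H3K4me1 with it and 2 had H3K27ac with it (3.3% of all genes). The bile duct factor Sox9, one of the latter, had H3K27ac over 1084 bases, with H3K27me3 over the whole window. Of the 9 stellate cell markers, 6 had H3K27me3 only, such as Pdgfrb and Dcn, and 1 had H3K27ac only (15.3% of all genes). The others, Lrat and Reln, carried all 3 marks, the state of 10.4% of all genes. Which liver cells bear each mark at these genes was not tested.

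**Figure D4:**
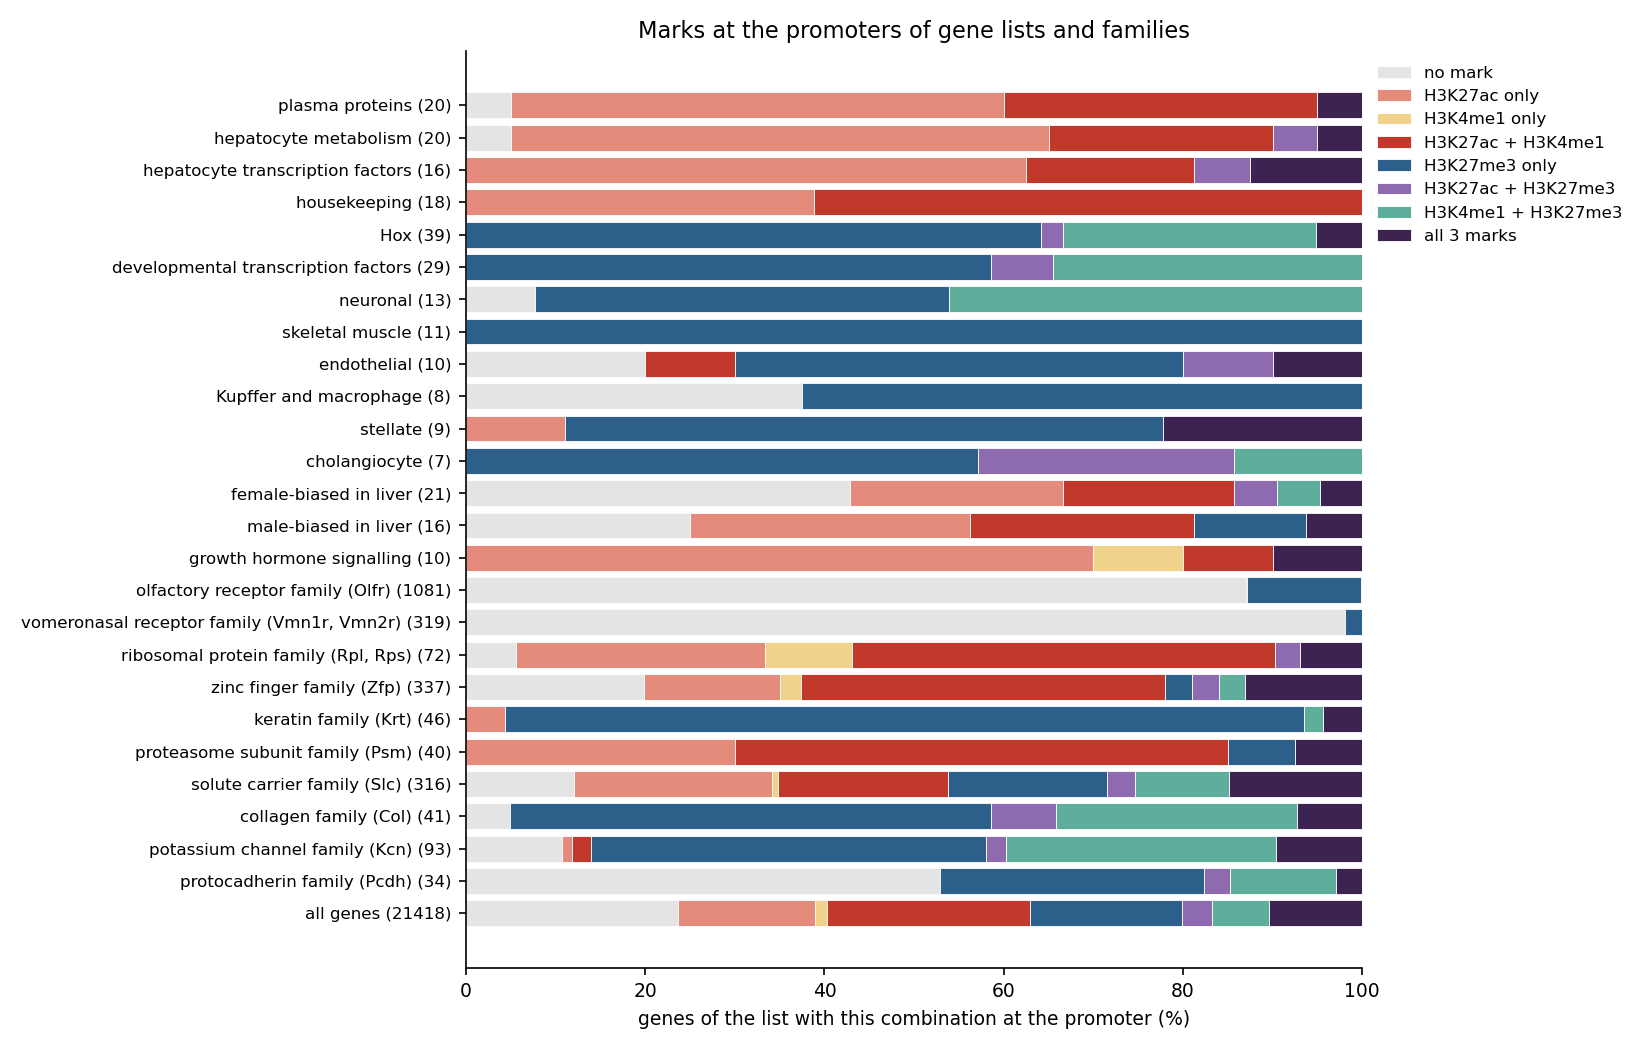
Percent of the genes of each list or family (x axis) with each combination of marks at the promoter, with the number of genes in brackets and all 21418 genes in the bottom bar. Hepatocyte and housekeeping lists lie almost wholly in H3K27ac states, Hox, muscle and developmental lists in H3K27me3 states, and receptor families of smell in no mark.

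Of 21 genes listed as female-biased in liver, 11 had H3K27ac (52.4%, against 51.6% of all genes), 3 had H3K27me3 (14.3% against 37%) and 9 had none of the marks, which was the state of 23.7% of all genes. Cyp17a1, a steroid hydroxylase, had H3K27ac over 962 bases, and Prlr, the prolactin receptor, had both active marks. Cux2, a female-specific repressor, had all 3 marks with H3K27ac over 1077 bases, and Hao2, a peroxisomal oxidase, had H3K27ac over 742 bases with H3K27me3 over the whole gene. Cyp2b9, Cyp2b13 and Cyp2a4 had no mark. Of 16 male-biased genes, 10 had H3K27ac (62.5%), 3 had H3K27me3 (18.8%) and 4 had no mark, set against the same shares of all genes. Elovl3, a fatty acid elongase, had H3K27me3 only at the promoter. H3K27me3 covered its whole length and H3K4me1 4.32% of it. Cyp4a12a and Cyp4a12b had no mark, while Cyp2d9, the bile acid enzyme Cyp7b1 and the transporter Slco1a1 had H3K27ac over 272, 1029 and 1481 bases. Several of these Cyp genes have near-identical copies, and reads that match several copies can be lost in mapping, so their unmarked state is uncertain.

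Gene families were taken by symbol, after values of other lists were known. Over all genes 51.6% had H3K27ac, 40.8% H3K4me1, 37% H3K27me3, 23.7% no mark, 16.9% H3K27me3 only and 6.4% H3K4me1 with H3K27me3. Of 1081 olfactory receptor genes 941 had none of the marks and 139 had H3K27me3, and of 319 vomeronasal receptor genes 313 had none. The 46 keratin genes of the epidermis and other epithelia had H3K27me3 in 44 cases and 41 had it alone. Of 41 collagen genes 39 had H3K27me3, and of 93 potassium channel genes 80 did, 28 of them with H3K4me1 and no H3K27ac. Of 72 ribosomal protein genes 61 had H3K27ac and 46 had H3K4me1, and of 40 proteasome genes 37 and 25. Of the 316 solute carrier genes, 59.2% had H3K27ac and 46.2% H3K27me3. Receptor and ribosomal protein genes have many close copies, so their counts share the same uncertainty.

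By bases inside the gene and 1 kb around it, the annotation entries Gm20388 and Fgfr2 ranked high in every marked combination. Their spans in the annotation used are 4435 and 3009 kb and enclose 72 and 31 other protein-coding genes, so their bases may belong to those genes. Next to them in H3K27ac alone came Zbtb20, a zinc finger repressor abundant in hepatocytes, with 25.2 kb, and Lpp with 21.4 kb. Pde4d, a cAMP phosphodiesterase, had 20.9 kb of H3K4me1 alone, and Magi1, a junction scaffold, 16.4 kb. Arhgap26 had 11.1 kb under both active marks. For H3K27me3 alone, bases summed over the gene came, after these entries, to 1055 kb in the neuronal channel gene Accn1, 889.5 kb in Odz2 and 815.8 kb in the neural adhesion gene Ntm. Cuedc1 and Ppp1r16b had 4.54 and 4.26 kb of H3K27ac within H3K27me3. Msi2 and Auts2 had 8.66 and 8.39 kb of H3K4me1 within it. All 3 marks together reached 2.55 kb in the kinase gene Ttbk1 and 2.32 kb in the glutamate receptor gene Grik4.

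H3K27me3 regions were sparse in H3K27ac, with 13.8 peaks per Mb against 22.8 outside. H3K4me1 differed little, with 21.6 against 23.0 per Mb, and protein-coding starts were denser inside, with 11.5 against 8.04 per Mb. Wider regions held fewer H3K27ac peaks per Mb. There were 31.6 in the 914 regions below 10 kb, 16.3 in those of 10 to 20 kb and 8.92 in those of 200 kb and more. Gene starts in these classes came to 26.9, 13.8 and 8.16 per Mb, and H3K4me1 peaks to 40.9, 23.5 and 16.8 per Mb. In all, 9693 of the 17188 regions (56.4%) held no active peak, against 63.9% under random placement. Counted by region, 27.9% held H3K27ac, against 27.4% under random placement, and 39.6% held H3K4me1, against 33.0%. The widest without any active peak lay over Kirrel3, a neuronal adhesion gene (362.8 kb, chr9:34443201-34806000), over Zfp423 (325.2 kb, chr8:90010401-90335600) and over Spon1 (282.4 kb, chr7:120728801-121011200). The most H3K27ac peaks, 23 with 41 H3K4me1 peaks, lay in the widest region (927.6 kb, chr9:60728801-61656400), which holds the corepressor gene Tle3. Regions with 19 peaks (chr7:139309201-139846400) and 13 peaks (chr9:40875201-41118800) followed, the latter over Ubash3b.

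Active peaks crowded just outside the edges of H3K27me3 regions. H3K27ac covered 3.78% of the bases 1 to 2 kb outside an edge, against 1.97% at 9 to 10 kb outside, and 0.965% in the first kb inside. H3K4me1 was highest 2 to 3 kb outside (2.56%), against 1.62% at 9 to 10 kb outside, and was 1.12% in the first kb inside. Gene starts were also densest there, with 20.98 per Mb 1 to 2 kb outside and 10.1 per Mb at 9 to 10 kb outside, and their part in the peak was not tested. Further inside, H3K27ac went from 1.08% at 1 to 2 kb to 0.612% at 19 to 20 kb, and H3K4me1 from 1.14% to 1.23%. The nearer distance rests on 34076 edges and the farther on 8890, those of wide regions only. Wide regions also held fewer H3K27ac peaks per Mb, so distance and width cannot be told apart in this profile. In regions of 100 kb and more, 27.3% of the H3K27ac peaks had their centre in the outermost 20% of the way from edge to middle and 17.5% in the innermost 20%, where an even spread gives 20% each. In regions of 50 to 100 kb the outermost step held 26.6% and the innermost 17.2%. In regions of 20 to 50 kb each such step held between 19.4% and 20.5%, and below 20 kb between 19.1% and 20.9%.

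**Figure D5:**
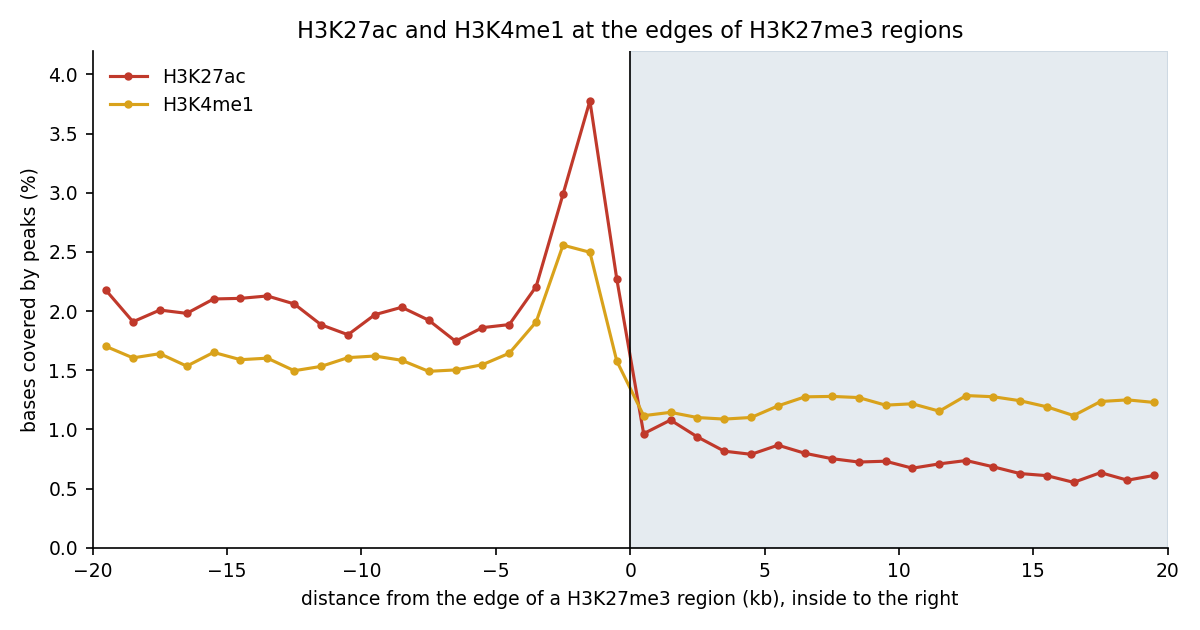
Percent of bases covered by H3K27ac and H3K4me1 peaks (y axis) by distance from the edge of an H3K27me3 region (x axis, kb, inside shaded), with each edge followed no further than the middle of the region or of the gap to the next. H3K27ac is highest 1 to 2 kb outside, at 3.78%, and lower than H3K4me1 at every distance inside.

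The sequence of the combinations, which the lists did not use, was read in the central 300 bp of each peak. Across all autosomal windows of 300 bp the median ratio of observed to expected CG was 0.152 and the mean GC content 41.9%. Peaks away from promoters had a median ratio of 0.192 with H3K27ac only, 0.184 with H3K27ac and H3K4me1 and 0.171 with H3K4me1 only. Inside H3K27me3 it was higher, with 0.226 for H3K27ac, 0.253 for H3K4me1 and 0.280 for H3K27ac peaks with all 3 marks. A ratio over 0.6 was found in 15.6% of these last peaks, in 11.7% of H3K4me1 peaks with H3K27me3, in 1.92% of H3K27ac peaks with H3K4me1 and in 1.78% of all windows.

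At promoters, centres of H3K4me1 peaks with H3K27me3 had a median ratio of 0.671 and a GC content of 61.5%, whereas those with H3K27ac and no H3K27me3 had 0.290 and 47.6%. In the plot of coverage around gene starts, H3K4me1 with H3K27me3 lies on the start itself, and H3K4me1 with H3K27ac beside it. Read from 250 bp before to 50 bp after the start of every gene, the median ratio was 0.793 at genes with H3K27ac and H3K4me1, 0.764 with H3K27ac only, 0.736 with all 3 marks, 0.664 with H3K4me1 and H3K27me3, 0.278 with H3K27me3 only and 0.167 with no mark. A ratio over 0.6 was found at 15.7% of starts with H3K27me3 only, against 53.7% with H3K27ac and H3K27me3, 57.7% with H3K4me1 and H3K27me3 and 69.3% with all 3 marks. Starts under H3K27me3 without an active mark were thus poorer in CG than those with one. The plasma protein genes had a median of 0.2498 and skeletal muscle genes of 0.383, while Hox genes had 0.697.

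Short motifs were counted on both strands in the same windows, as letters only. The motif CAAAGTCCA, to which HNF4 binds, was in 0.390% of all windows. Away from promoters it was in 1.37% of H3K4me1 peaks without other marks (interval 1.21 to 1.55%), 1.27% of those with H3K27me3 (1.02 to 1.57%), 1.04% of H3K27ac peaks with H3K4me1 (0.889 to 1.22%) and 0.623% of H3K27ac peaks alone (0.506 to 0.766%). The nuclear receptor site AGGTCA had the same order, with 25.7%, 24.9%, 23.0% and 20.4% against 16.3% of all windows. The CEBP letters TTGCNNAA were in 15.3% of H3K4me1 peaks alone and 13.7% of all windows, with 12.7% of H3K27ac peaks with H3K4me1. The GC box GGGCGG was in 2.94% of all windows and 43.7% of promoters. At promoters it was in 56.0% of H3K27ac peaks with all 3 marks (53.8 to 58.1%), 46.7% of H3K4me1 peaks with H3K27me3 and 8.91% of H3K4me1 peaks with H3K27ac alone. The ETS letters CCGGAAGT were at 12.1% of starts with H3K27ac and H3K4me1, 5.63% of those with all 3 marks and 0.606% of those with H3K27me3 only. TATAAA was at 27.4% of starts with no mark and 6.20% of those with H3K27ac and H3K4me1. These shares move with base composition, which differs between the combinations as given above.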

How the data were processed

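ChIP-seq for H3K27ac, H3K4me1 and H3K27me3 was carried out by the authors on 4 control female livers per mark. Per the labels and the study's methods, the authors joined the reads of the 4 livers, mapped them to mm9 with Bowtie2 2.3.2 and called H3K27ac and H3K4me1 peaks with MACS2 2.1.1 and H3K27me3 regions with SICER 1.1. The deposited lists used here give only positions. Sequencing depth is not given in the sources used here, so a missing peak cannot be told apart from low depth.

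Starts were read as counted from 0, and 1 base was added to H3K27me3 ends. Autosomes were used, with annotation from GENCODE M1. A promoter was 1 kb on either side of a protein-coding transcript start, and for gene states of the gene start. A gene body ran to 1 kb past the gene end. Expected values are exact: each peak was placed at every position of its chromosome outside assembly gaps, with the other lists fixed. With 1 list per mark no test was run, and shares carry Wilson 95% intervals. Motifs were searched on both strands, and 21 were counted. The code was tested on simulated intervals (0 of 4000 windows wrong). Python 3.11.15, numpy 2.4.6, pandas 2.3.3, scipy 1.17.1 and matplotlib 3.10.9 were used.

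The combinations, gene lists and rules were chosen with earlier results of these data known. Genes were named mostly in list order within a state, with the number varying between lists. Added to these were genes from among the 5 with most bases of each combination. The 3 widest H3K27me3 regions without active peaks and the 3 with most H3K27ac peaks were also given. Of 250 list genes, 247 were found. Some list genes are counted but not reported by name here. Alternatives changed the overlap, the joining of peaks, the chromosomes, the width of peaks kept, the promoter window, the annotation and the space for placement.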

Additional observations from a re-analysis of the deposited data

Results flagged for a closer look

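The X chromosome, left out of the comparisons above, differed from the autosomes in all 3 lists. H3K27me3 regions covered 60.3% of its bases, against 26.3% of the autosomes, with 2608 regions at 16.1 per Mb against 7.18 per Mb. Active peaks were sparse, with 844 H3K27ac peaks at 5.21 per Mb against 20.4 per Mb and 617 H3K4me1 peaks at 3.81 per Mb against 22.6 per Mb. Of the X-linked H3K27ac peaks, 94.4% met H3K27me3 (797 of 844, Wilson 95% interval 92.7 to 95.8%), and of the H3K4me1 peaks 94.7% (584 of 617, interval 92.6 to 96.2%). Random placement on the X gave 60.9% of H3K27ac peaks with H3K27me3 and no H3K4me1, where 76.1% were found. For H3K27ac peaks with all 3 marks it gave 0.360%, where 18.4% were found. Of H3K4me1 peaks it gave 60.4% with H3K27me3 and no H3K27ac, where 68.7% were found. With all 3 marks it gave 0.494% of them, where 25.9% were found. Female cells carry an active and an inactive X, which these lists do not separate.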

How the results depend on the processing

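With 1 pooled list per mark, no liver could be left out. No paired analysis was possible because each mark has a single list called on joined reads. Values follow in a fixed order: the percent of H3K27ac peaks with H3K4me1, of H3K27ac peaks with H3K27me3, of H3K4me1 peaks with H3K27ac, of H3K4me1 peaks with H3K27me3, of H3K27me3 regions with either active mark, and of H3K27ac peaks with both other marks. With at least 50% of the peak or region covered they were 31.7%, 17.4%, 31.2%, 24.7%, 0% and 7.11%, the 0 arising because regions are far wider than peaks. With peaks within 1 kb merged they were 58.1%, 20.3%, 48.0%, 26.0%, 44.0% and 12.3%. With the X included they were 49.3%, 19.1%, 46.6%, 25.9%, 39.6% and 10.1%. With the widest 50% of each list they were 41.4%, 10.2%, 38.7%, 20.4%, 42.7% and 5.44%. With H3K27me3 regions trimmed by 5 kb at each edge, a choice made after seeing the data, 12.1% of H3K27ac and 18.3% of H3K4me1 peaks met H3K27me3. The trimmed regions covered 19.3% of the autosomes, against 26.3% untrimmed. The percent at promoters of H3K27ac alone, H3K27ac with H3K4me1 and H3K4me1 alone was 26.1%, 21.6% and 2.57% with a window of 0.25 kb, 38.0%, 28.3% and 25.8% with 3 kb, 35.3%, 28.01% and 15.7% with all annotated genes, 32.2%, 27.3% and 12.6% with merged peaks, and 47.9%, 37.7% and 14.2% with the widest peaks. H3K27ac and H3K27me3 were at 47.9% and 34.3% of gene starts with 0.25 kb, 55.1% and 41.7% with 3 kb, 46.1% and 26.7% with the widest peaks, and 28.02% and 33.8% where at least 50% of the window had to be covered. With assembly gaps kept, the expected percent of H3K27ac peaks with H3K4me1 was 2.44% and with H3K27me3 26.6%, of H3K4me1 peaks with H3K27ac 2.21% and with H3K27me3 26.4%, and of H3K27me3 regions with H3K27ac 26.5% and with H3K4me1 32.0%. As observed over expected, H3K27ac with H3K4me1 lay between 18.1 and 22.1 and H3K27ac with H3K27me3 between 0.470 and 0.734 with merged or widest peaks. H3K27me3 regions with H3K27ac went from 1.02 to 0.780 with the widest peaks. The cause of these shifts was not tested.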
